A study of Mus musculus with 51 samples.

Results

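*Smad4* knockout (KO) mouse embryonic stem cells (mESCs) were compared by RNA-seq with wild-type (WT) cells of the same line on day 1 of differentiation with Bmp4. The comparison uses 2 of the 51 samples of the series, 1 WT and 1 KO, among 18 RNA-seq samples in all. Genes were examined when their FPKM (fragments mapped to a gene, divided by the length of its transcript and the total of mapped fragments) was above 1 in either column, which kept 11232 of 24538 genes. The cells came from mice of the strain 129S/SvEvxC57BL/6 carrying conditional *Smad4* alleles, whose first exon lies between loxP sites. The KO cells were obtained by transient Cre expression and were taken from expanded single clones, so that the KO and the clone cannot be told apart. Both kinds of cells were freed of feeder cells, aggregated in hanging drops and plated on fibronectin in medium with 20 ng/ml of Bmp4, and 40000 cells were collected for each sample. Other columns used here are the *Smad4* KO and WT cells on day 2 and WT cells of F1G4, another mESC line, as aggregates before differentiation (ES) and on days 1, 2 and 3 with the same Bmp4 treatment.

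Smad4 is the common partner of the receptor-activated Smads. Bmp ligands lead to phosphorylation of Smad1, Smad5 and Smad9, and Nodal and activin to that of Smad2 and Smad3, and both groups enter the nucleus and bind DNA together with Smad4. In the gastrulating embryo Bmp4 from the extra-embryonic ectoderm acts on the proximal epiblast, where *Wnt3* and *Nodal* are switched on ahead of the mesoderm genes *Eomes* and *T*, whereas epiblast cells shielded from both signals take a neural course. The Id genes encode inhibitors of basic helix-loop-helix factors and are textbook immediate targets of BMP signalling. Day 1 precedes the main wave of mesoderm genes.

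The deposited table has a single FPKM value for WT and KO, so these files allow no replicate check, no test and no error on any value, and sequencing depth is unknown. The labels give 1 sample per column for the *Smad4* line and 2 per stage for F1G4, whose columns are therefore the authors' pooled values. For day 2 of the *Smad4* lines the study's text speaks of averages of replicates, against the single sample in the labels, so the number of libraries behind a column of these lines is not settled. A gene was called lower or higher when the log2 ratio of FPKM + 0.1, KO over WT, was below −1 or above 1. By this rule 478 of 11232 genes (4.26%) were called, 239 lower (2.13%) and 239 higher (2.13%) in KO cells, and the median log2 ratio of all examined genes was −0.0045. Of 321 genes above FPKM 1 in WT cells alone, 138 were called lower. Of 371 genes above it in KO cells alone, 140 were called higher. A gene near the minimum that is examined through 1 column alone tends to be lower in the other by this choice. The spread between the columns depended on the level. When genes were divided into 10 equal groups by mean FPKM, in the lowest group, up to 1.57, the robust standard deviation of the log2 ratio over genes was 0.73 and 21.3% of genes were called, against 0.15 and 0.534% in the highest group, from 74.5. Among the 5657 genes that reached FPKM 10 in the higher column, 69 were called, 47 lower and 22 higher. Just above the minimum of FPKM 1 lay *Prkaa2* (1.0001 in WT, 0.804 in KO), and just below it lay *Pld6* (0.9999 in WT, 0.922 in KO), which was not examined. At the fold threshold, *Itga1* (1.78 in WT, 0.84 in KO) was called and *Tfap2c* (12.8 in WT, 6.34 in KO) was not. None of the 12 housekeeping genes was called, and their log2 ratios ranged from −0.48 to 0.17. Of 12 feeder fibroblast markers only *Thy1* was above the minimum, at 1.78 in WT and 1.76 in KO cells. None of the 3 examined genes of the X and Y list was called. The sample labels speak of cardiac mesoderm progenitors, but at day 1 defining genes such as *Mesp1*, *Pdgfra*, *Kdr*, *Gata4*, *Nkx2-5* and *Tnnt2* were under the minimum in both columns, and pluripotency genes were high. Of 10 cardiac genes 3 were above it, *Isl1* (3.85 in WT, 2.88 in KO), *Myh6* (2.34 and 2.42) and, in KO cells alone, *Actc1* (0.609 and 1.15), none of them called.

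**Figure D1:**
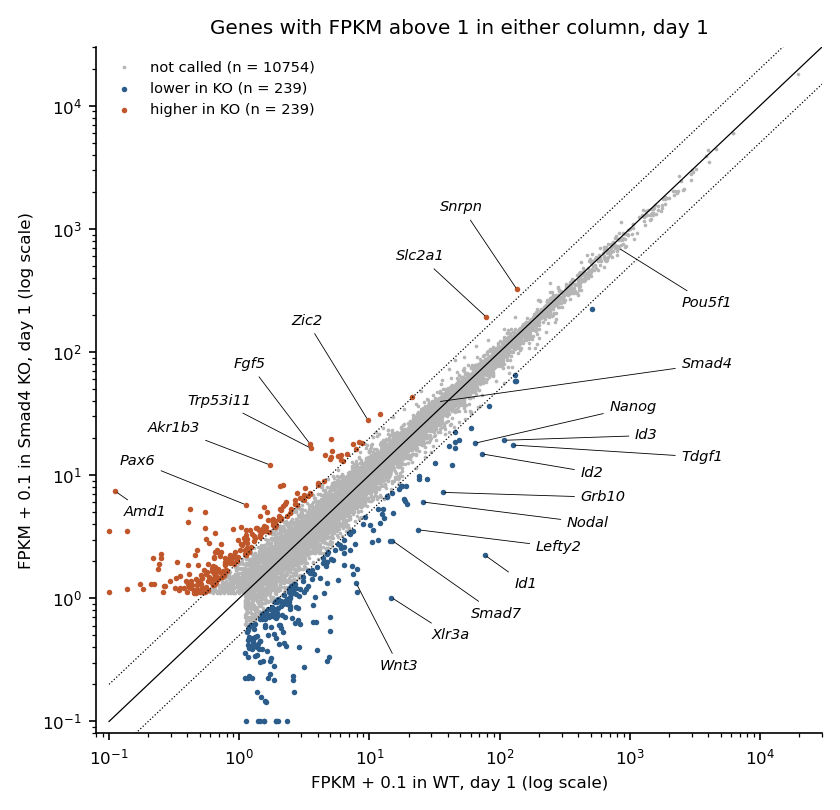
FPKM + 0.1 in *Smad4* KO cells (vertical axis) against WT cells (horizontal axis) on day 1, both on log scales, for the 11232 examined genes; each point is a gene, the solid line marks equal values and the dotted lines the 2-fold threshold. *Id1*, at 77.1 in WT and 2.14 in KO, is the gene farthest below the line among genes with FPKM of at least 10, and *Smad4* itself lies near the line.

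*Smad4* had an FPKM of 33.8 in WT against 39.4 in KO cells (log2 0.22). The value of the whole gene does not show the loss of a first exon, so it checks nothing about the labels. The other Smads of the signalling branches were close to equal. *Smad1* was at 10.8 in WT and 9.07 in KO, *Smad5* at 6.15 and 6.77, and *Smad2* at 7.78 and 8.22. *Smad3* was at 3.56 and 5.33 (log2 0.57), and *Smad9* was under the minimum. The inhibitory Smads, which block the receptors and are themselves switched on by the signal, were lower in KO cells. *Smad7* was at 14.9 in WT and 2.84 in KO cells (log2 −2.35), and *Smad6* at 3.13 and 1.09 (log2 −1.45). With a pseudocount of 1 the ratio of *Smad6* was −0.99, just short of the threshold. Of the 7 Smad genes examined, 2 were thus lower and none higher, with a median log2 ratio of 0.079. Over all examined genes 2.13% were called in each direction.

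Most Bmp ligand genes were not expressed above the minimum. Of the 11 genes of the ligand list, *Gdf3* (15.6 in WT, 14.8 in KO) and *Bmp7* (1.46 and 1.3) were above the minimum, and *Bmp4* itself was not. Among the genes named Bmp, *Bmp7* was thus the only one above it. The type I receptor *Bmpr1a* was the main Bmp receptor transcript, at 29.5 in WT and 30.6 in KO cells, and the type II receptor *Bmpr2* was at 2.91 and 2.55. *Acvr1*, another type I receptor, was at 1.57 and 0.724 (log2 −1.02), a call that a pseudocount of 1 removed (−0.58). The co-receptor *Rgmb* was at 1.51 and 0.875. The transcripts of *Bmpr1a* and *Bmpr2* were thus at like levels in both columns, whereas *Acvr1* and *Rgmb* were above the minimum in WT cells alone. Among 14 Bmp antagonists 4 were examined and 1 was called lower, where 2.13% of all examined genes were called lower. *Fst*, encoding the activin and Bmp binding protein follistatin, was at 12.3 in WT and 4.77 in KO cells (log2 −1.35), whereas *Fstl1* was at 31.5 and 38.1, *Fstl3* at 2.45 and 1.31, and *Twsg1* at 11.1 and 13.4.

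Genes known as direct targets of Bmp signalling were lower in KO cells almost throughout. Of the 18 genes of this list 13 were examined and 12 were called lower, none higher, where 2.13% of all examined genes were called lower. Of the 12, *Msx1*, *Msx2*, *Tbx3*, *Hand1*, *Gata2* and *Cdx2* passed the minimum through the WT column alone. Among all 321 genes that did so, 138 were called lower. The Id genes, *Smad6* and *Smad7* were above the minimum in both columns. The median log2 ratio of the 13 genes was −2.49, against −0.0045 over all examined genes. *Id1* had an FPKM of 77.1 in WT and 2.14 in KO cells, a 36-fold lower value and the lowest log2 ratio (−5.11) of any gene with FPKM of at least 10 (chr2:152736251-152737410, GRCm38.p6). *Id3* was at 109 in WT and 19.1 in KO cells (log2 −2.50). *Id2* was at 73.2 and 14.8 (log2 −2.30), and *Id4* at 7.22 and 1.71 (log2 −2.01). All 4 Id genes were thus lower, but while *Id1* was close to lost, *Id2* and *Id3* kept FPKM above 10 in KO cells. Summed over the family, FPKM was 266 in WT and 37.7 in KO cells, 7.06-fold lower. In bulk RNA, fewer cells expressing a gene and less RNA per cell cannot be told apart.

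The homeobox and T-box targets were expressed at low levels in WT cells and lay near 0 in KO cells. *Msx1* was at 3.88 in WT and 0.282 in KO cells (log2 −3.38), and its relative *Msx2* at 2.51 and 0.116 (log2 −3.59). *Tbx3*, a T-box gene, was at 2.19 and 0.307 (log2 −2.49). *Gata2*, a zinc finger factor of trophoblast and blood, was at 1.62 and 0.142 (log2 −2.83), and *Cdx2*, the caudal-type factor of trophoblast and posterior embryo, at 1.36 and 0.0586 (log2 −3.20). *Hand1*, a basic helix-loop-helix factor of lateral mesoderm, was at 1.94 and 0.507 (log2 −1.75), which a pseudocount of 1 reduced to −0.96. The exception was *Bambi*, a pseudoreceptor that dampens Bmp signalling, at 3.23 in WT and 1.85 in KO cells (log2 −0.77, not called). In F1G4 WT cells on day 1 the same genes were expressed as well, with *Id1* at 79.7, *Id2* at 83.7, *Id3* at 52.6, *Id4* at 5.39, *Msx1* at 4.65 and *Msx2* at 1.13. When the KO column was set against F1G4 WT cells in place of its own WT, scaled to a common median, 9 of 10 examined genes of the list were lower by the same rule, with *Bambi* again the exception, where 3.83% of 11205 genes were lower and 6.73% higher in that comparison. The remaining 3, *Tbx3*, *Gata2* and *Cdx2*, were then at or under the minimum after scaling.

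To show the regulatory sequence in question, upstream windows of 3 of these genes are given from RefSeq promoters (GRCm38.p6), with matches to Smad-binding letters in capitals. Coordinates are those of the printed window, and distances run from the first letter of the match to the transcription start. GGCGCC, a GC-rich Smad element, lies in *Id2* (chr12:25096233-25096342, minus strand, 231 bases before the start) and *Id4* (chr13:48260916-48261025, plus strand, 148 bases before it). GTCTAGAC, the palindromic Smad element, lies in *Smad6* (chr9:64022056-64022159, minus strand, 4 bases before the start and ending past it). The start used for *Smad6* is that of its promoter entry. By the outer end of the gene (chr9:63953076-64022085) the match lies within the gene. Both motifs read the same on either strand and do not overlap each other.
Id2: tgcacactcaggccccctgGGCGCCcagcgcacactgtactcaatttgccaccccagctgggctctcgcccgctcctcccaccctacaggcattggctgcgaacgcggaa
Id4: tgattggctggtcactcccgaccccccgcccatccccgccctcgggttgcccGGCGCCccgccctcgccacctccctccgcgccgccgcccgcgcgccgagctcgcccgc
Smad6: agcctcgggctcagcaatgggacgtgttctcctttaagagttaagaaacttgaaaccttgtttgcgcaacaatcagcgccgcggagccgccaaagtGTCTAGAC
Over windows from 250 bases before to 50 bases after the start, GGCGCC occurred in 3 of the 8 lower direct targets with an entry (37.5%), in 41 of 168 lower genes (24.4%), in 32 of 163 higher genes (19.6%), and in 25.9% of 8784 examined genes and 13.4% of all 27025 genes with a promoter. GTCTAGAC occurred in 1 of 168 lower genes (0.595%), 2 of 163 higher genes (1.23%) and 0.307% of examined genes. The shares in lower genes were thus like those in examined genes, and a match is a description of the letters, not a site. No promoter entry was used for *Id1*, *Lefty1*, *Lefty2* and *Wnt8a*.

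Within the Nodal pathway the ligand, its co-receptor and its antagonists were lower in KO cells, while receptors and DNA-binding partners were not. Of 19 genes 15 were examined, 5 lower and none higher, with a median log2 ratio of −0.058. Over all examined genes 2.13% were called in each direction. *Nodal* (chr10:61417972-61425338, GRCm38.p6) had an FPKM of 25.6 in WT and 5.96 in KO cells (log2 −2.09). *Tdgf1*, encoding the co-receptor Cripto, was at 126 and 17.5, 7.24-fold lower (log2 −2.85). The secreted antagonist genes *Lefty2* and *Lefty1*, both targets of the pathway, were at 23.7 and 3.5 (log2 −2.72) and at 6.29 and 1.76 (log2 −1.78). The components that receive the signal lay close to equal. The receptor genes *Acvr1b*, *Acvr2a* and *Acvr2b* had log2 ratios of −0.27, 0.11 and 0.35, and *Foxh1*, the DNA-binding partner of Smad2, was at 36.8 in WT and 35.4 in KO cells. The proteases *Furin* and *Pcsk6*, which process the ligand, had ratios of 0.23 and −0.41, and the corepressors *Skil*, *Ski* and *Tgif1* and the Foxh1 inhibitor *Drap1* had ratios from 0.021 to 0.27. F1G4 WT cells on day 1 expressed *Nodal* at 9.91, *Lefty1* at 2.29 and *Lefty2* at 14.1, all below the WT cells of the *Smad4* line. Against these cells the ratio of *Nodal* was −0.69 and that of *Lefty1* −0.33, short of the threshold, whereas *Tdgf1*, at 163 in F1G4 WT cells, was lower against either control.

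All Wnt ligand genes above the minimum were lower in KO cells, 4 of 4 examined among 19, but *Wnt8a* and *Wnt4* passed the minimum through the WT column alone. Over all examined genes 2.13% were called lower, and 138 of the 321 that passed through the WT column alone. *Wnt3*, the ligand of the early primitive streak, had an FPKM of 7.83 in WT and 1.22 in KO cells (log2 −2.58). *Wnt8a* was at 4.85 and 0.441 (log2 −3.19). *Wnt4* was at 1.17 and 0.361 (log2 −1.47), and *Wnt5b* at 2.53 and 1.2 (log2 −1.02). The other ligand genes were under the minimum in both columns. A pseudocount of 1 left *Wnt3* and *Wnt8a* called and reduced *Wnt4* and *Wnt5b* to −0.68 and −0.69. The transcripts of *Wnt3* and *Wnt8a* in F1G4 WT cells, 2.47 and 0.847 on day 1, lay between the WT and KO values, and against them the ratio of *Wnt3* was −0.92.

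Targets of Wnt signalling moved less than the ligands. Of 9 examined, 1 was lower and 1 higher, with a median log2 ratio of −0.047, where 2.13% of all examined genes were called in each direction. *Axin2*, a feedback inhibitor and common readout, was at 4.41 in WT and 2.24 in KO cells (log2 −0.95, not called). *Dkk1*, a secreted inhibitor, was at 1.27 and 0.0749 (log2 −2.97). *Lef1*, encoding a DNA-binding partner of beta-catenin, was higher in KO cells, at 2.66 and 7.01 (log2 1.37), but F1G4 WT cells stood at 8.51. The partner *Tcf7* was at 8.63 and 9.71, and the cyclin gene *Ccnd1* at 43.3 and 44.2. *Znrf3*, *Rspo3*, *Nkd2* and *Apcdd1* were not called (log2 −0.67, −0.85, −0.047 and 0.28).

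**Figure D2:**
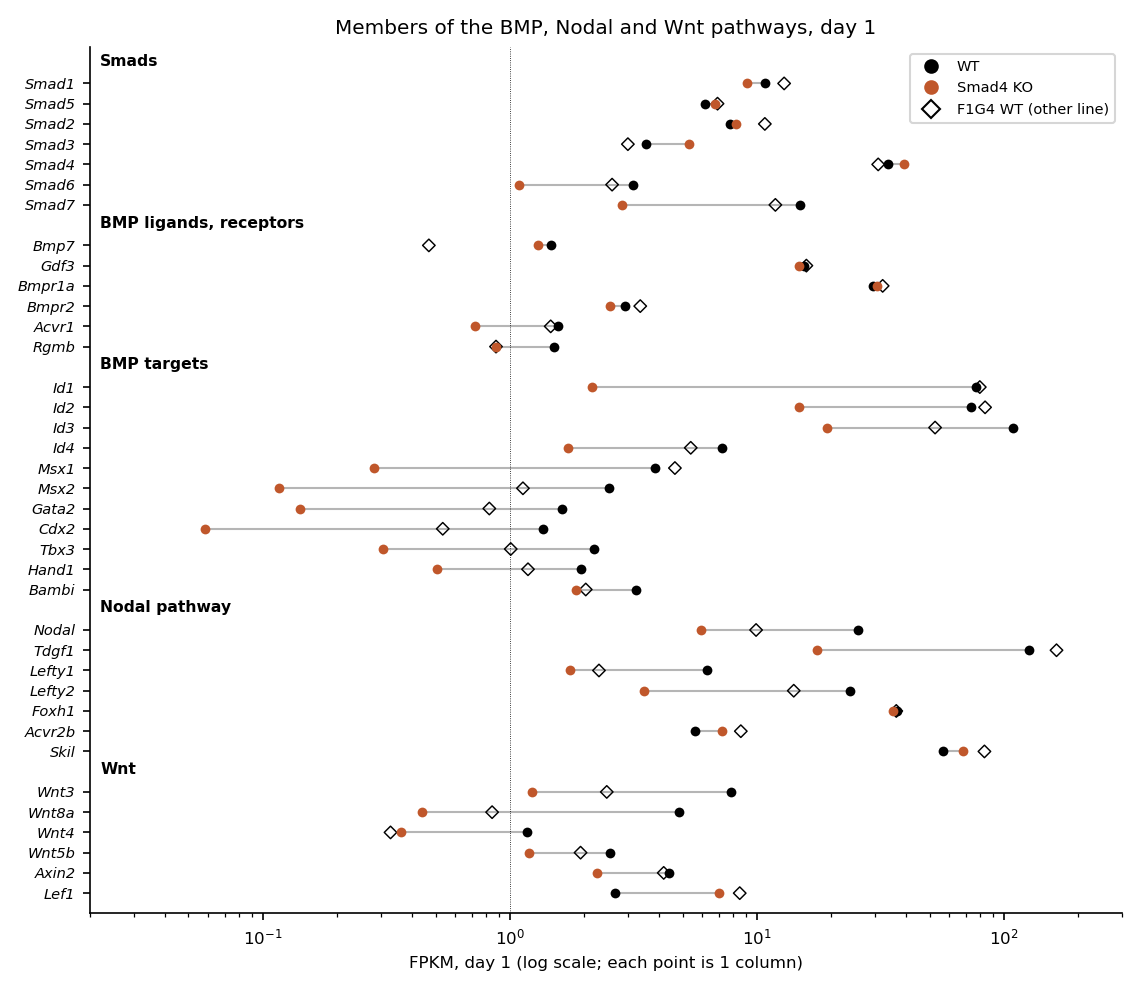
FPKM on day 1 (log scale) of members of the BMP, Nodal and Wnt pathways in WT cells (black), *Smad4* KO cells (orange) and F1G4 WT cells (open diamonds); each point is 1 column and the dotted line marks FPKM 1. Points of *Bmpr1a*, *Foxh1* and *Smad2* nearly coincide, while those of *Id1* lie 36-fold apart and those of *Nodal*, *Lefty1* and *Wnt3* have the F1G4 value between WT and KO.

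Mesoderm genes were barely on at this time. Of 19 nascent mesoderm genes 3 were examined, and all 3 were lower in KO cells: the T-box genes *Eomes* (2.35 in WT, 0.767 in KO, log2 −1.50) and *T* (1.86 and 0.839, log2 −1.06), and *Hand1*. All 3 passed the minimum through the WT column alone, which favours a lower value in KO cells. Among all 321 genes that did so, 138 were called lower, against 2.13% of all examined genes. *Mixl1*, *Mesp1*, *Fgf8* and the other 13 were under the minimum in both columns. With a pseudocount of 1 none of the 3 was called. None of the 3 examined cardiac genes and the 4 examined blood and endothelial genes was called. Of 9 trophoblast and amnion genes examined 3 were lower, *Cdx2*, *Gata2* and *Gcm1* (1.75 and 0.412, log2 −1.85), and none higher, and these 3 also passed the minimum through the WT column alone. The keratins *Krt8* (99.3 and 91.4) and *Krt18* (148 and 139) were not called. Among germ cell genes, which also require Bmp4 in the embryo, none of 6 was called, and *Tfap2c* lay at the threshold (log2 −1.0). Neither of the 2 definitive endoderm genes examined, *Trh* (70.4 and 36.7, log2 −0.94) and *Foxa3*, and none of 4 primitive and visceral endoderm genes was called, and *Gata4*, *Gata6*, *Sox7*, *Sox17*, *Afp* and *Ttr* were under the minimum.

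Most genes of the core pluripotency network were at similar levels in both columns. *Pou5f1* (Oct4) had an FPKM of 824 in WT and 697 in KO cells, *Sox2* at 81.5 and 102, *Sall4* at 30.5 and 25.9, *Lin28a* at 222 and 209 and *Utf1* at 18 and 21.1, with no call among them. Besides *Tdgf1*, only *Nanog* of the 11 core genes was called, where 2.13% of all examined genes were called in each direction. *Nanog*, the homeobox factor of naive cells and of the posterior epiblast, was at 65.2 in WT and 18.1 in KO cells (log2 −1.84). F1G4 WT cells on day 1 stood at 16.1, near the KO value, so the direction depended on the WT column used: against F1G4 cells the ratio was 0.21.

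More naive genes were lower than higher in KO cells, and more formative and primed genes were higher than lower. Of 14 naive genes examined, 4 were lower and 1 higher (median −0.57). Of 17 formative and primed genes 2 were lower and 5 higher (median 0.60). Of all examined genes 2.13% were lower and 2.13% higher. The lower genes *Nr5a2* and *Tbx3* passed the minimum through the WT column alone, and the higher gene *Sox3* through the KO column alone. Lower naive genes were *Tbx3*, *Nr5a2* (2.79 and 0.944, log2 −1.47), *Dppa5a* (514 and 222, log2 −1.21) and *Klf2* (3.85 and 1.71, log2 −1.13), although *Klf2* stood at 1.53 in F1G4 WT cells. A pseudocount of 1 removed the calls of *Nr5a2* (−0.96) and *Klf2* (−0.84), leaving 2 lower and 1 higher naive gene, and it left 2 lower and 4 higher formative and primed genes. *Gbx2* was higher, at 1.35 and 4.59. *Zfp42* (47.6 and 36.8), *Dppa3* (194 and 116) and *Klf5* (21.3 and 12.8) were not called. *Fgf5*, the classical marker of the primed epiblast, was at 3.4 in WT and 17.9 in KO cells (log2 2.36), and F1G4 WT cells stood between them at 8.39. *Pou3f1* (Oct6) was at 6.58 and 14.7 (log2 1.15), *Zic2* at 9.63 and 28.0 (log2 1.53) and *Cdh2*, encoding N-cadherin, at 1.23 and 3.00. *Otx2* (22.9 and 37.8, log2 0.72) and *Dnmt3b* (242 and 367, log2 0.60) were not called. The DNA methylation cofactor *Dnmt3l* (132 and 64.8, log2 −1.03) went the other way and was lower. In F1G4 WT cells on day 1, *Pou3f1* (13.9), *Zic2* (18.7) and *Cdh2* (1.75) lay between the WT and KO values, with *Pou3f1* near that of KO cells. *Otx2* (54.1) and *Dnmt3b* (455) in F1G4 WT cells stood above both values.

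Several early neural genes were higher in KO cells, at low levels. Of 9 examined, 4 were higher and none lower (median log2 ratio 0.77), where 2.13% of all examined genes were higher. *Sox1* and *Sox3* passed the minimum through the KO column alone. Among all 371 genes that did so, 140 were called higher. *Pax6* was at 1.02 in WT and 5.65 in KO cells (log2 2.36). The neural SoxB1 genes *Sox1* and *Sox3* were at 0.136 and 1.62 (log2 2.86) and at 0.799 and 3.55 (log2 2.02). *Fabp7*, a fatty acid binding protein of neural progenitors, was at 2.17 and 5.77 (log2 1.37). In F1G4 WT cells *Sox1*, *Pax6* and *Fabp7* were at 0.22, 0.481 and 0.735 on day 1, below the KO value in each case. The intermediate filament gene *Nes* was at 13.8 and 23.1 (log2 0.73), and *Hey1* and *Irx3* had ratios of −0.65 and −0.73. The other 12 of the 21 neural genes, *Olig2* and *Hes5* among them, were under the minimum.

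**Figure D3:**
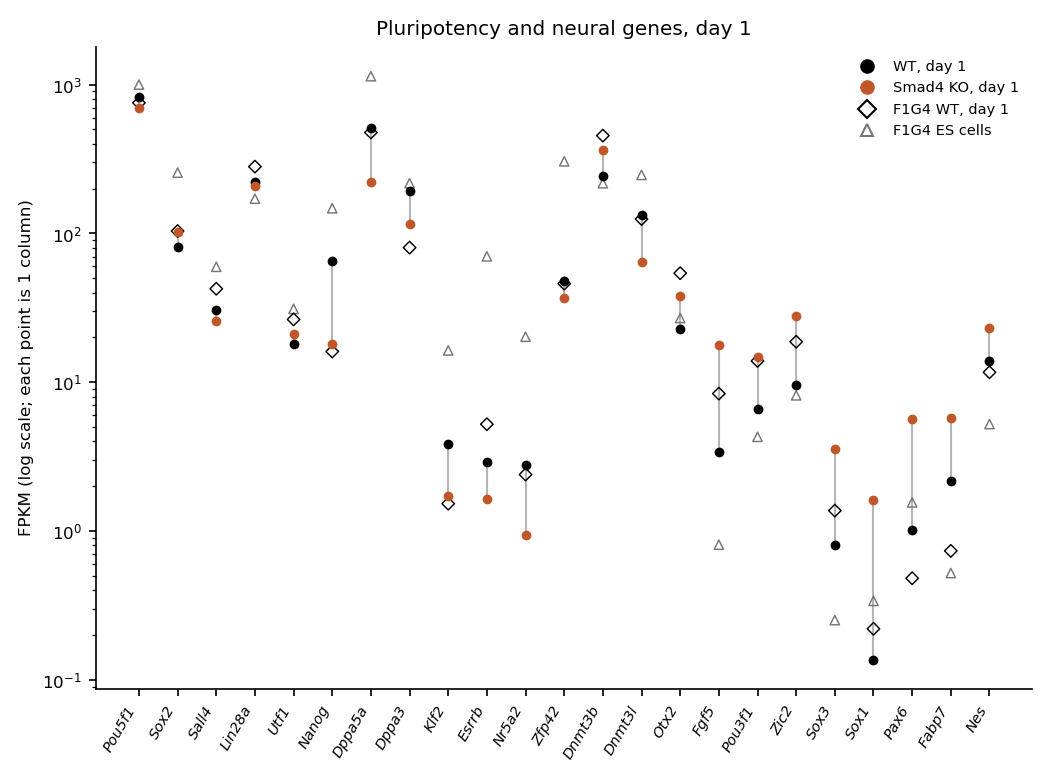
FPKM (log scale) of pluripotency and neural genes in WT (black) and *Smad4* KO cells (orange) on day 1, in F1G4 WT cells on day 1 (open diamonds) and in F1G4 ES cells (open triangles); each point is 1 column. *Nanog* in KO cells (18.1) lies beside F1G4 WT cells on day 1 (16.1), and *Sox1*, *Pax6* and *Fabp7* in KO cells lie above every other column shown.

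In the lists of other pathways at most 3 examined genes each were called. Over all examined genes 2.13% were called in each direction, a share that 1 call already exceeds in lists this short. Of 17 FGF pathway genes examined 1 was higher (*Fgf5*) and 1 lower (*Fgf17*, 1.81 and 0.844), and the ERK feedback genes *Dusp6* (42.1 and 61.0, log2 0.54) and *Spry2* (7.87 and 11.5, log2 0.54) were not called. Of 11 Notch pathway genes 3 were higher, the ligands *Dll1* (1.58 and 3.36) and *Dll3* (1.78 and 4.14) and the modulator *Lfng* (1.46 and 3.76), while the target *Hes1* was at 20.4 and 18.4. A pseudocount of 1 removed all 3 of these calls. None of 5 retinoic acid genes and none of 14 Atf4 target genes was called. Of 10 immediate early genes *Egr1* was higher (0.703 and 1.58), and of 12 p53 targets *Trp53i11* (3.45 and 16.5, log2 2.22), while *Cdkn1a* (7.51 and 6.49) and *Mdm2* (81.0 and 67.4) were not. Of 16 hypoxia and glycolysis genes only the glucose transporter *Slc2a1* was called, at 78.9 in WT and 192 in KO cells (log2 1.28), while its relative *Slc2a3* was at 167 and 107. Epithelial genes were not called (*Cdh1* 74.0 and 84.9, *Epcam* 253 and 279), and of 13 epithelial and mesenchymal genes *Cdh2* and *Zeb1* (0.277 and 1.11) were higher. Of 10 germline genes *Tdrkh* was higher (0.767 and 2.04).

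Imprinted genes and an X-linked cluster contributed some of the largest changes. Of 22 imprinted genes examined 4 were lower and 1 higher, with a median of 0.094, where 2.13% of all examined genes were called in each direction. *Grb10*, an adaptor that dampens insulin and IGF signalling, was at 36.5 in WT and 7.15 in KO cells (log2 −2.33). *Peg10*, derived from a retrotransposon and needed in placenta, was at 43.3 and 11.9 (log2 −1.85). The growth factor *Igf2* was at 4.66 and 1.89 (log2 −1.26), and *Phlda2* at 45.7 and 22.4, while *Snrpn*, a splicing protein gene, was higher (136 and 323, log2 1.25). With a pseudocount of 1 the ratios of *Igf2* (−0.97) and *Phlda2* (−1.0) fell short of the threshold and 2 lower genes remained, *Grb10* and *Peg10*. *H19*, the neighbour of *Igf2*, was at 201 and 131 (not called). As background, *Grb10* and *Phlda2* are read mainly from the maternal copy in early tissues and *Peg10*, *Igf2* and *Snrpn* from the paternal one. The lymphocyte-regulated Xlr genes on the X chromosome were all lower among those examined, *Xlr3a* (14.7 and 0.915), *Xlr3b* (4.63 and 0.207) and *Xlr4a* (3.06 and 0.176), each above the minimum in WT cells alone. *Xlr3a*, *Xlr3b* and *Xlr3c* are near-identical copies, so reads cannot be assigned with certainty. Their sum was 20.1 in WT and 1.15 in KO cells, and 0.184 in F1G4 WT cells on day 1, below both. No chromosome was shifted as a whole, since the median log2 ratios of the chromosomes, over genes with FPKM of at least 5, lay between −0.050 and 0.028.

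**Figure D4:**
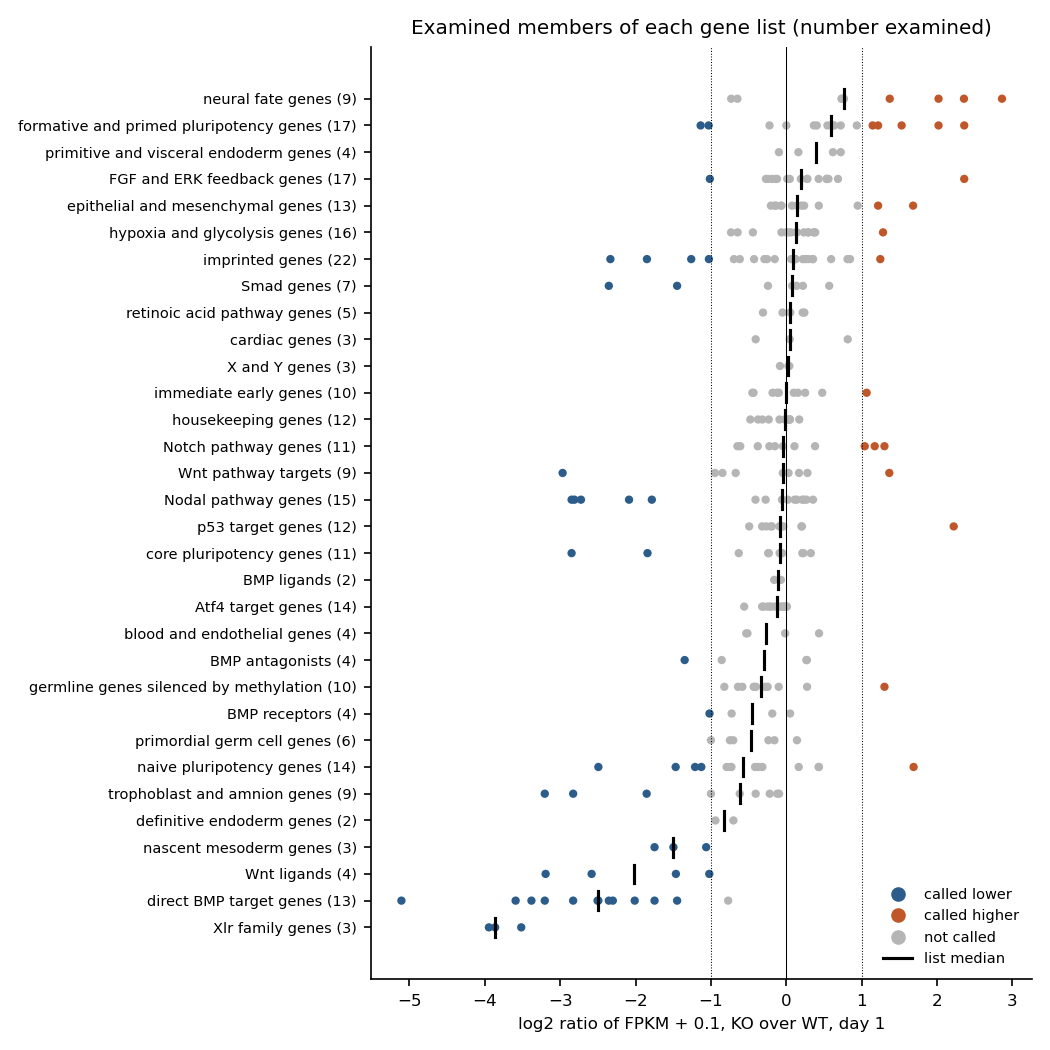
Log2 ratio of FPKM + 0.1, KO over WT on day 1, of the examined members of each gene list with at least 2 of them (number in brackets), ordered by the list median (black bar); blue points were called lower, orange higher and grey not called, and dotted lines mark the threshold. The lists of direct BMP targets (−2.49), Wnt ligands (−2.02) and Xlr genes (−3.86) have the lowest medians and the neural list the highest (0.77).

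The remaining genes among the 12 lowest and 12 highest ratios at FPKM of at least 10 came from no common list. On the lower side were *Ppp4r4*, a regulatory subunit of protein phosphatase 4 (14.3 in WT and 2.8 in KO, log2 −2.31), *Tnfrsf19*, a receptor of the TNF receptor family (10.4 and 2.75, log2 −1.89), and the small nucleolar RNA gene *Snora64* (11.6 and 2.86). *Ppp4r4* stood at 2.65 in F1G4 WT cells, at the level of the KO cells. On the higher side were the aldose reductase *Akr1b3* (1.62 and 12, log2 2.82), the orphan receptor *Gprc5c* (4.99 and 19.5, log2 1.95) and *Upp1*, an enzyme of uridine breakdown (5.06 and 15.6, log2 1.60). The chemokine *Cxcl12* was at 4.96 and 13.8 (log2 1.46), the kinase *Stk39* at 4.85 and 13.5, and the carbonic anhydrase *Car14* at 11.9 and 31.5. *Snora24* (4.47 and 14.6) and the histone gene *Hist1h4n* (5.6 and 14.1) complete the list. Small nucleolar RNAs were called often in both directions, 10 lower and 5 higher of 55 examined, against 2.13% of all examined genes in each direction. The highest ratio of all examined genes, that of *Amd1* (0.0121 and 7.29, log2 6.04), named after its values were seen, was that of a gene with a near-identical copy. The FPKM of *Amd1* and *Amd2* summed to 43.4 in WT and 43.3 in KO cells.

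Genes called on day 1 were followed in the separate day 2 columns. Of the 160 lower genes that were also examined on day 2, 99 (61.9%) were lower there too, where 2.58% of the 10736 genes examined on both days were lower on day 2, and 1 was higher. Of the 174 higher genes 59 (33.9%) were higher on day 2, against 1.99%, and 3 were lower. Conversely, 35.7% of the 277 genes lower on day 2 and 27.6% of the 214 higher ones had already been called the same way on day 1. The share was higher for lower than for higher genes at each level, and in both directions highest among genes that reached FPKM 10 on day 1. For lower genes it was 56.9% at FPKM 1 to 3, 52.1% at 3 to 10 and 78.7% (37 of 47) from 10, and for higher genes 27.6%, 35.4% and 54.5% (12 of 22). These shares leave out 79 lower and 65 higher genes at or under FPKM 1 in both day 2 columns. Most of these were at FPKM 1 to 3 on day 1, where 65 of 138 lower and 87 of 146 higher genes were examined on day 2. At 3 to 10 it was 48 of 54 and 65 of 71, and from 10 all were examined. Across the 334 genes the 2 log2 ratios had a Pearson r of 0.75, a description across genes, which are not independent replicates. The days were collected separately but share the KO clone and the WT line, so that *Smad4* and other differences of the clone cannot be told apart on either.

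The pathways went different ways between the days. For the 5 lower Nodal pathway genes the ratio was larger on day 2 in every case. On day 2 *Tdgf1* was at 187 in WT and 3.3 in KO cells (log2 −5.78), and *Lefty2* at 19.3 and 1.24 (log2 −3.85). The mesoderm genes *Eomes* and *T*, at −1.50 and −1.06 on day 1, reached log2 ratios of −3.76 and −4.75, and *Axin2*, not called on day 1, was at 9.72 and 0.945 (log2 −3.23). The Id genes went the other way. *Id1* had a log2 ratio of −4.16 on day 2, *Id2* of −1.64, *Id3* of −1.61 and *Id4* of −0.70, each smaller in size than on day 1, and the sum of the family was 80.2 in WT and 22.1 in KO cells, 3.62-fold lower. The WT values of *Id1* and *Id3* were 16.1 and 25.4 on day 2, below 77.1 and 109 on day 1. Of the 11 lower direct targets examined on both days, 7 had a smaller ratio on day 2 and 4 (*Msx2*, *Tbx3*, *Hand1* and *Gata2*) a larger one. Among higher genes *Pax6* had a larger ratio on day 2 (0.378 and 10.4, log2 4.46), while *Fgf5* had a smaller one, with WT cells at 23.9 and KO cells at 37.7 (log2 0.65, not called). Over all genes called the same way on both days, 76 of the 99 lower genes and 35 of the 59 higher genes had the larger ratio on day 2, with medians of −1.54 and −2.31 on days 1 and 2 for lower and 1.4 and 1.57 for higher genes.

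Some lists with few calls on day 1 held more on day 2, counted over the members examined on day 1. Of all genes examined on both days 2.58% were lower and 1.99% higher on day 2. Of 9 neural genes examined on day 2, 7 were higher, against 4 of 9 on day 1, and the list median went from 0.77 to 1.67. Of 10 naive genes 6 were lower on day 2, and of 5 germ cell genes 3, where none had been called on day 1. All 4 Wnt ligand genes examined on day 1 were lower on both days, with medians of −2.02 and −3.06. *Wnt3* had a log2 ratio of −3.35 on day 2 with WT cells at 13.7. *Wnt6* and *Wnt7b*, under the minimum on day 1, were also lower on day 2 (log2 −2.13 and −1.16). *Nanog* was at 121 for WT and 26.8 for KO cells on day 2 (log2 −2.17), a larger ratio than on day 1. Several of the largest changes outside the signalling pathways were found again. *Grb10* was at 58.2 and 6.76 (log2 −3.09), *Peg10* at 53.3 and 7.81 (log2 −2.75) and *Xlr3a* at 10.8 and 1.23 (log2 −3.04). On the higher side *Slc2a1* was at 101 and 319.6 (log2 1.66), and *Snrpn* at 141 and 353 (log2 1.33). *Akr1b3* was not higher again, with WT cells at 15.7 and KO cells at 9.73 (log2 −0.68).

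**Figure D5:**
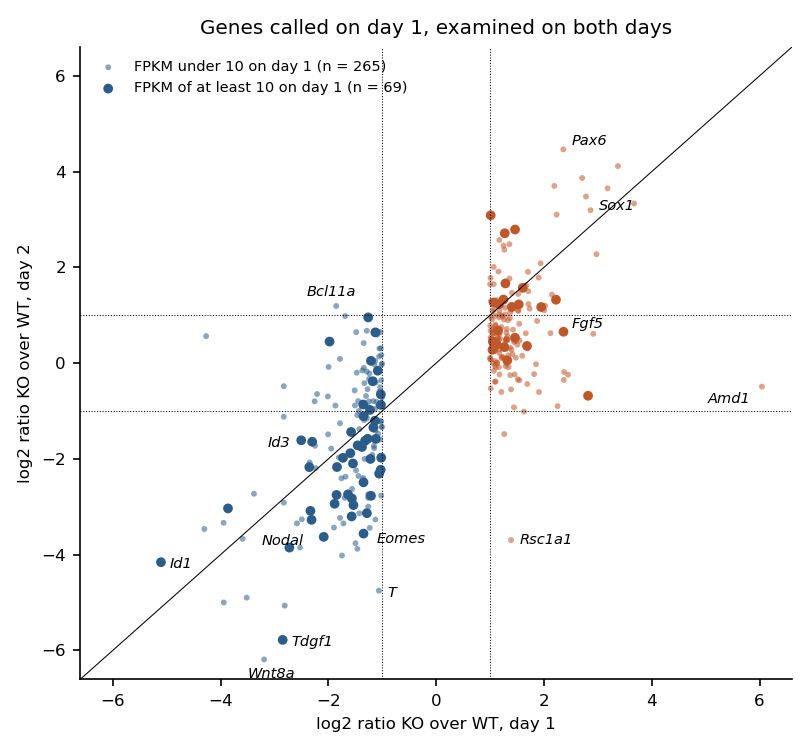
Log2 ratio KO over WT on day 2 (vertical axis) against day 1 (horizontal axis) for the 334 genes called on day 1 and examined on both days; blue genes were lower and orange genes higher on day 1, large points had FPKM of at least 10 on day 1 in the higher column, the diagonal marks equal ratios and dotted lines the threshold. *Tdgf1* (−2.85 and −5.78) and *T* (−1.06 and −4.75) lie below the diagonal and *Id1* (−5.11 and −4.16) above it.

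To see where in the normal course these genes lie, the called genes were looked up in F1G4 WT cells between the ES state and day 1. Of 161 lower genes examined there, 45 (28%) were higher on day 1 than in ES cells and 45 (28%) lower, against 7.12% and 3.99% of the 10598 genes examined in both. Of 142 higher genes, 39 (27.5%) were higher on day 1 and 28 (19.7%) lower. Called genes thus included genes that went up and genes that went down over the first day in another line. *Id1*, *Id2*, *Id3*, *Msx1* and *Msx2* belonged to the first kind, while *Id4* was at 3.69 and 5.39. *Id1* was at 22.4 in F1G4 ES cells and 79.7 on day 1, *Id2* at 8.81 and 83.7, *Id3* at 14.9 and 52.6, and *Msx1* at 0.0647 and 4.65. The KO values of *Id1* and *Msx1* on day 1, 2.14 and 0.282, lay one below and one above those ES values. *Tdgf1*, *Lefty2* and *Nanog* belonged to the second kind, at 625, 75.1 and 148 in ES cells and 163, 14.1 and 16.1 on day 1, before *Tdgf1* and *Nanog* stood at 569 and 120.5 on day 2. Among genes that reached FPKM 10, 11 of 46 lower genes (23.9%) were higher on day 1 than in ES cells and 18 (39.1%) lower, against 3.41% and 1.69% of genes not called. Of the higher genes at that level, 9 of 22 were higher on day 1 than in ES cells and 2 lower, *Fgf5* (0.809 and 8.39), *Car14* (0.841 and 19.1) and *Cxcl12* (0.452 and 10.3) among the former.

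The columns of the WT lines themselves differed on day 1. The F1G4 values are pooled and were deposited apart from those of the *Smad4* line, so line and processing cannot be told apart here. Scaled to a common median, 1152 of 11157 genes (10.3%) differed between WT cells of the *Smad4* line and F1G4 WT cells by the same rule, 406 lower and 746 higher in the *Smad4* line, more than the 478 genes called between KO and WT. Between KO and F1G4 WT cells, the line and *Smad4* cannot be told apart. Of the 71 called genes that are named by rule, 58 could be set against F1G4 WT cells. Of these 32 were called the same way, 20 kept the direction without passing the threshold and 6 changed direction (*Nanog*, *Klf2*, *Ppp4r4*, *Lef1*, *Snora24* and *Hist1h4n*). The Id genes, *Msx1*, *Msx2*, *Smad6*, *Smad7*, *Tdgf1*, *Lefty2* and, on the higher side, *Fgf5*, *Sox1* and *Pax6* were called with either control.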

How the data were processed

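Strand-specific ScriptSeq v2 libraries were made from total RNA of 40000 cells per sample. Per the submitters' processing notes and the study's methods, the authors trimmed reads with cutadapt 2.9, aligned them with HISAT2 2.1.0 to mm10, and used SAMtools 1.9 and Cuffdiff 2.2.1 with the RefSeq annotation to obtain the deposited FPKM values, 1 column per condition. FPKM hides the number of reads, so the depth is unknown and neither a count test nor an interval could be computed. FPKM of very short genes is uncertain, and reads of near-identical copies could be split between them.

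From the deposited FPKM, genes above FPKM 1 in either column were examined (11232 of 24538), and log2 ratios of FPKM + 0.1, KO over WT, beyond 1 in size were called. The same rule was applied to day 2, to F1G4 WT cells on day 1 against ES, and to the WT lines against each other after scaling to a median ratio of 1. With 1 value per condition no p-value could be computed, and the number of libraries behind a column is not settled between the labels and the study's text. A robust standard deviation is the scaled median absolute deviation over genes. The samples were grouped by their titles. Alternatives were another pseudocount (1 or none), FPKM minimum (5 or none), fold threshold (1.5), scaling to TPM or to the median ratio, and leaving out short RNA and histone genes. The members and the 33 gene lists were chosen with earlier results of these data known.

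Named genes are *Smad4*, the 12 lowest and 12 highest ratios among called genes that reached FPKM 10 in either column, all examined members of the BMP, Smad, Nodal and Wnt lists, and of every other list the called members and the most highly expressed of the rest. Genes named outside this rule are given as such or lie at a threshold. Gene positions and promoters came from RefSeq tables of GRCm38.p6, in which 24448 genes were matched and 90 were not; both strands of 250 bases before to 50 bases after each start were searched. Python 3.11.15, pandas 2.3.3, numpy 2.4.6 and matplotlib 3.10.9 were used, and the scripts were tested on simulated data. Columns of other knockout lines and the chromatin samples were not used here. A few members of the lists are counted but not reported here by name.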

Additional observations from a re-analysis of the deposited data

Results flagged for a closer look

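A gene was listed for a second look when it was called in opposite directions on day 1 and day 2; the difference between the days was not tested, since each day has 1 column per condition. There were 4 such genes among 334 called on day 1 and examined on both days, and they are named after their values were seen. *Bcl11a*, a zinc finger repressor, had an FPKM of 1.98 in WT and 0.476 in KO cells with a log2 ratio of −1.86 on day 1, against 1.20, 2.88 and 1.19 on day 2. For *Rsc1a1* the day 1 values were 1.57 for WT and 4.26 for KO (log2 1.39), whereas on day 2 WT cells had 1.20 and the gene was listed at 0 in KO cells. *1700013H16Rik* went from 0.726 for WT against 1.88 for KO (day 1 log2 1.26) to 4.94 against 1.7 the day after (log2 −1.48). *Dynlt1f* went from 1.53 against 4.94 (day 1 log2 1.63) to 4.00 against 1.93 (log2 −1.01), but summed with its near-identical copy *Dynlt1c* it had an FPKM of 8.54 in WT and 8.17 in KO cells on the first day. All 4 genes had FPKM under 5 in every column, where the spread between columns was wide.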

How the results depend on the processing

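No paired analysis was possible because each condition has a single column. The number of called genes followed the minimum and the threshold. In place of 478 (239 lower and 239 higher), 117 were called above FPKM 5 (69 and 48), 889 after rescaling to TPM, which puts more genes above the minimum (366 and 523), 1280 at a 1.5-fold threshold (612 and 668), 1748 with no minimum (853 and 895) and 176 with a pseudocount of 1 (106 and 70). Genes lower on both days numbered 39 above FPKM 5, 204 with no minimum and 55 with a pseudocount of 1, and genes higher on both days 21, 135 and 21, with 111 after TPM rescaling. In F1G4 cells, lower genes that went up by day 1 numbered 8 above FPKM 5, 77 with TPM, 142 with no minimum and 21 with a pseudocount of 1, and those that went down 22, 129 and 23 without the TPM value, which was close to the reported one. Higher genes that went up numbered 10, 117, 176 and 14, and those that went down 4, 49, 98 and 7. The WT lines differed in 539 genes above FPKM 5, 2426 with no minimum and 613 with a pseudocount of 1. Of the direct Bmp targets 5 of 5 were lower above FPKM 5, and their median was −2.16 with no minimum and −1.60 with a pseudocount of 1.

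With a pseudocount of 1, 51 of the 71 called genes named by rule kept their call and 20 lost it, *Smad6*, *Hand1*, *Eomes*, *T*, *Igf2*, *Phlda2*, *Klf2* and *Nr5a2* among them, with no change of direction. After TPM rescaling 67 kept it and *Dnmt3l*, *Fgf17*, *Phlda2* and *Wnt5b* lost it. Median scaling, no pseudocount and no minimum kept all 71. The following were chosen after seeing the data. With F1G4 WT cells as control the median of the direct Bmp targets was −1.77, and the direction changed for *Nanog* (0.21), *Klf2* (0.19), *Ppp4r4* (0.11), *Lef1* (−0.24), *Snora24* (−1.43) and *Hist1h4n* (−3.51); the cause was not tested. Summing near-identical copies gave −0.0048 for *Amd1* and −0.062 for *Dynlt1f*. The absence of replicates and of read counts limits every value, most of all below FPKM 3.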
